A study of Mus musculus with 24 samples.

Results

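The 8 genes *Fos*, *Fosb*, *Fosl1*, *Fosl2*, *Jun*, *Junb*, *Jund* and *Atf3* were followed through an RNA-seq study of mouse embryonic fibroblasts (MEFs). They were chosen by name as the FOS, JUN and ATF3 genes that make up the transcription factor AP-1, and are 8 of the 55471 genes in the count tables. All 8 passed the filter on low counts, which left 17522 genes for testing. The cells were 3T3 MEFs, which are immortalized fibroblasts, in 4 genotypes. These were wild-type cells (WT), cells that lack the kinase LKB1, and the clones A1 and A2. The LKB1 knockout is written here as *Lkb1*-/-, and its gene is *Stk11*. A1 and A2 are a pair of LKB1/CRTC2 knockout clones made from the *Lkb1*-/- cells by CRISPR/Cas9 editing of the first exon of *Crtc2*. Each genotype was left untreated or was given the cytokine IL-1β for 6 hours, and each of these 8 groups has 3 libraries, so 24 in all. A1 and A2 lack both LKB1 and CRTC2, and each is 1 clone, so that differences due to the loss of CRTC2 and differences due to growing from 1 cell cannot be told apart. The paper lists the wild-type and the *Lkb1*-/- MEFs as 1 line each. Differences due to the loss of LKB1 and other differences between these lines therefore cannot be told apart either. The labels do not say that replicates were separate cultures, and the p-values measure only the spread between these libraries.

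AP-1 is a dimer of basic leucine zipper proteins. FOS proteins bind DNA only together with a partner, most often a JUN protein, whereas JUN proteins also pair with each other, and the dimer binds the sequence TGANTCA in the promoters and enhancers of genes for growth, matrix breakdown and inflammation. ATF3 is a relative from the ATF/CREB family that stress signals induce and that also pairs with JUN proteins. *Fos*, *Fosb* and *Junb* are classical immediate early genes, switched on within minutes by growth factors and cytokines, and the *Fos* promoter is a known target of CREB, the DNA-binding protein that CRTC2 assists. LKB1 activates kinases (the SIKs) that keep CRTC2 out of the nucleus.

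In GRCm38 with GENCODE M21, *Fos* is at chr12:85473890-85477273, *Fosl1* at chr19:5447547-5455946, *Fosl2* at chr5:32135801-32157842 and *Jund* at chr8:70698949-70700616 on the plus strand. *Fosb* is at chr7:19302696-19310051, *Jun* at chr4:95049034-95052222, *Junb* at chr8:84974484-84978718 and *Atf3* at chr1:191170296-191218039 on the minus strand. Genes on the opposite strand overlap *Fosl1* (*Ccdc85b*), *Jun* (*Junos*), *Junb* (*Prdx2*), *Jund* (*Gm11175*) and *Atf3* (*Gm24748*), and the counts used were made by strand.

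Since CREB binds the cyclic AMP response element, the promoters of the genes were searched for it. RefSeq promoters of 300 bases around the start of the gene, most of them before it (build GRCm38.p6), were at hand for 7 of the 8 genes, *Fosl1* being the other. The full element TGACGTCA was in 0 of the 7, against 1.79% of all 32851 promoters in the table, and its TGACG part, on either strand, was in 4 of the 7, against 20.8% of all promoters. The TGACG count includes any full element. The AP-1 site TGANTCA was in 0 of the 7 (7.81% of all promoters), the core of the serum response element, to which the factor SRF binds, in 0 (1.63%), and the NF-κB motif in 3, namely *Fos*, *Fosb* and *Fosl2* (4.51%). The promoters of *Fos* (chr12:85473640-85473939, plus strand), *Junb* (chr8:84978699-84978998, minus strand) and *Atf3* (chr1:191183284-191183583, minus strand) are shown for the TGACG part, and that of *Fosl2* (chr5:32136222-32136521, plus strand) because this gene had the largest rise of the 8 and no such match. Each is written 5′ to 3′ on the gene's strand, with TGACG or its reverse complement in capitals.
Fos: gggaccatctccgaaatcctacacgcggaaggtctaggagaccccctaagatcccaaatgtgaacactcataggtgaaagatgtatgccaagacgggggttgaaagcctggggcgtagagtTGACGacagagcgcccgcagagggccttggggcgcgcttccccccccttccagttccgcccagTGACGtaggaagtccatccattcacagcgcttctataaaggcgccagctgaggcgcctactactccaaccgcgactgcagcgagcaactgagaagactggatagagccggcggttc
Junb: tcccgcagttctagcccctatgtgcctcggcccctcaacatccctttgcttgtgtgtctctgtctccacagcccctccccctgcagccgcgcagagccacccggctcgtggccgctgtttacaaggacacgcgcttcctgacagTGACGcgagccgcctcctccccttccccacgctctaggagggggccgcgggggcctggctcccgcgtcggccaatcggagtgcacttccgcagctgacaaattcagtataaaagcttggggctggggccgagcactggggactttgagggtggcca
Atf3: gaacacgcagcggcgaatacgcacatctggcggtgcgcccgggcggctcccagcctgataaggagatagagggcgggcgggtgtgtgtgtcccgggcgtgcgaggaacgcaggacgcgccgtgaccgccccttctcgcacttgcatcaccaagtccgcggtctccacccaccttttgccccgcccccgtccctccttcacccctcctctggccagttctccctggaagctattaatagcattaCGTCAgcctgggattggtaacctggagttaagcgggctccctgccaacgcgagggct
Fosl2: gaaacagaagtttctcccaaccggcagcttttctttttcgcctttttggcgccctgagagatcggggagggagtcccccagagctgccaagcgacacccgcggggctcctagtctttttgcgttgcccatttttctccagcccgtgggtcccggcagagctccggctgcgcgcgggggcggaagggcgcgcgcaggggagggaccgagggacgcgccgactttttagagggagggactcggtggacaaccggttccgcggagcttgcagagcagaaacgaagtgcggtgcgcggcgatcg
In *Fos* the letters TGACG begin 129 and 66 bases before the start, in *Junb* 106 bases and in *Atf3*, on the other strand, 7 bases before it. *Fosb* had the fourth match, 60 bases before its start. The RefSeq starts used for *Atf3* and *Fosl2* lie inside the longer GENCODE genes, and the *Jund* window, which held none of the motifs, ends before the GENCODE gene begins, so these 3 windows do not hold the starts given above. These are matches of letters only, and nothing in these libraries measures binding. Sites outside the 300 bases were not searched, so a motif that is absent here may lie further upstream.

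Read pairs on genes ranged from 38842901 to 48594394 per library. *Stk11* fell from 86.0 ± 1.68 CPM (counts scaled to a common library size, SD, n = 3) in untreated wild-type cells to 17.3 ± 1.24 in *Lkb1*-/- cells, and *Crtc2* from 81.2 ± 1.80 in *Lkb1*-/- cells to 42.9 ± 2.11 in A1 and 49.8 ± 0.864 in A2. An edit of an exon need not remove the RNA, so the *Crtc2* level does not check the loss of the protein. The cells had fibroblast genes, with the 10 fibroblast markers summing to between 5716 and 9935 CPM, but these differed between the lines: *Thy1* had no library above 3 counts, *Dcn* was at 0.411 ± 0.0653 CPM in untreated wild-type cells and 218 ± 12.1 in *Lkb1*-/- cells, and *Col1a2* at 780 ± 165 and 63.0 ± 15.7. Markers of epithelial cells (6 genes), blood cells (7) and endothelial cells (5) summed to at most 0.499, 8.96 and 3.85 CPM, and *Krt5*, *Ptprc*, *Cd3e*, *Adgre1*, *Itgam*, *Cdh5* and *Cldn5* had no library above 3 counts. The sum of the blood cell markers was between 2.49 and 5.13 CPM in wild-type, 4.32 and 6.21 in *Lkb1*-/-, and 5.77 and 8.96 in clone libraries, and that of the endothelial markers between 0.370 and 0.678 in wild-type and 2.06 and 3.85 in all other libraries. Their part in the values below was not tested. Counts come from whole cultures, so that fewer cells with a transcript and less of it per cell cannot be told apart.

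**Figure D1:**
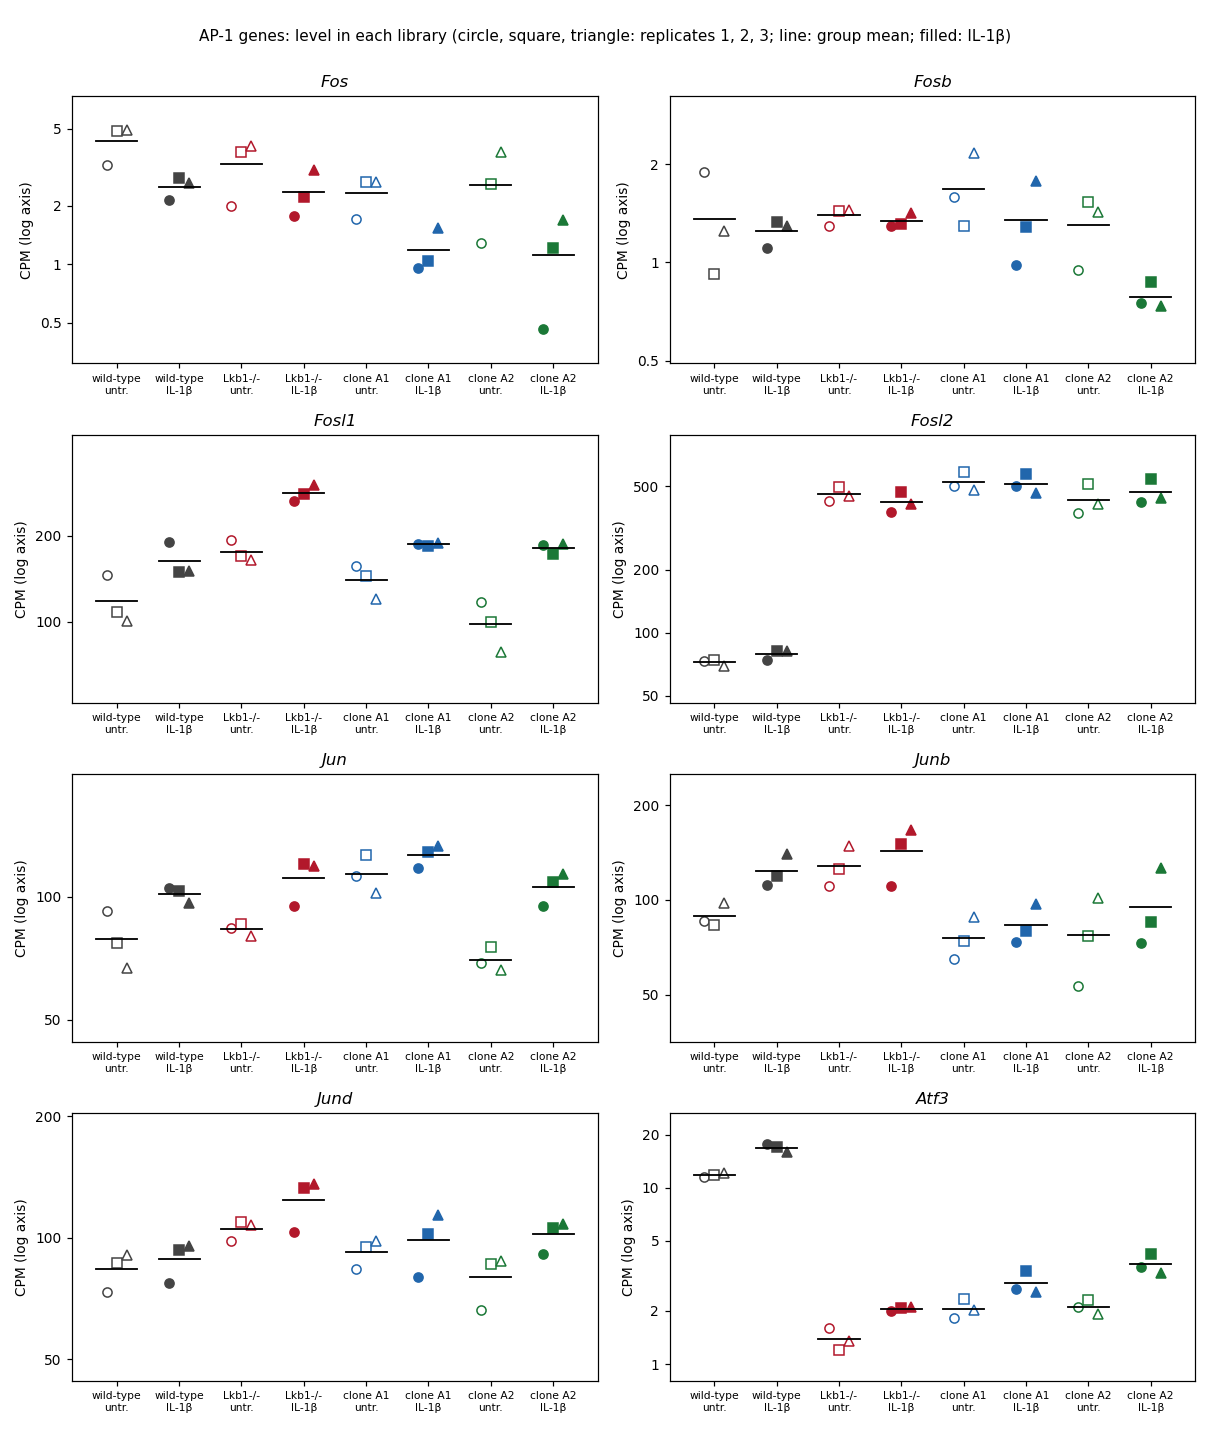
Level of each of the 8 AP-1 genes in every library, in CPM on a log axis, for the 4 genotypes untreated (open) and with IL-1β (filled), with replicates 1, 2 and 3 as circles, squares and triangles and the group mean as a line. *Fosl2* lies below 83 CPM in the 6 wild-type libraries and above 370 in the other 18, and *Atf3* above 11 CPM in the wild-type libraries and below 5 in the others.

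The makeup of the AP-1 genes differed between the genotypes. To compare genes of unequal length, CPM was divided by exon length in kilobases. Among the FOS genes *Fosl1* (FRA1) had the highest mean level per length in 8 of the 8 groups, although *Fosl2* was above it in 2 of the 3 untreated A2 libraries. This order rests on the exon lengths used, 2033 bases for *Fosl1* and 9680 for *Fosl2*. In untreated wild-type cells *Fosl1* made up 85.6 ± 2.59% of the summed FOS level per length (SD, n = 3), with 11.2 ± 1.65% from *Fosl2* (FRA2), 2.85 ± 0.998% from *Fos* and 0.317 ± 0.0739% from *Fosb*. In untreated *Lkb1*-/- cells *Fosl1* made up 63.8 ± 3.47% and *Fosl2* 35.0 ± 3.11%, and in untreated A1 and A2 cells *Fosl2* reached 43.5 ± 3.02% and 47.4 ± 6.69%. The share of *Fosl2* did not overlap between the wild-type libraries (7.51% to 12.2%) and all others (22.2% to 51.4%). The summed FOS level per length was 67.5 ± 11.7 CPM per kilobase in untreated wild-type, 135 ± 5.78 in *Lkb1*-/-, 124 ± 12.5 in A1 and 94.3 ± 10.5 in A2 cells, and with IL-1β it was highest in *Lkb1*-/- cells at 183 ± 11.3.

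The JUN genes were closer to each other in level. In untreated wild-type cells *Jund*, the JUN gene that is least dependent on stimulation, held 44.1 ± 3.61% of the summed JUN level per length, *Junb* 34.0 ± 2.01% and *Jun* 21.9 ± 4.28%. The share of *Junb* was 38.4 ± 3.05% in untreated *Lkb1*-/- and 26.5 ± 2.74% in A1 cells, where *Jun* was at 28.9 ± 3.50%. *Jund* stayed between 36.2% and 47.6% in all 24 libraries. The summed JUN level was 113 ± 4.07 CPM per kilobase in untreated wild-type and 145 ± 10.6 in untreated *Lkb1*-/- cells.

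By mean CPM over the 8 groups, *Atf3* spanned the widest range, 12.1-fold from treated wild-type (16.9 CPM) to untreated *Lkb1*-/- cells (1.39 CPM), followed by *Fosl2* at 7.23-fold, from untreated A1 (522 CPM) to untreated wild-type (72.1 CPM). *Fos* spanned 3.87-fold, with untreated wild-type first and treated A2 last, *Fosl1* 2.87-fold, with treated *Lkb1*-/- first and untreated A2 last, and *Fosb* 2.14-fold. The JUN genes spanned less, *Junb* 1.89-fold and *Jund* 1.55-fold, both highest in treated *Lkb1*-/- cells, and *Jun* 1.8-fold, highest in treated A1. Most neighbours in these orders overlapped. For *Junb* and *Jund* all neighbours did, while the treated *Lkb1*-/- libraries stood clear of the next group for *Fosl1*, and for *Atf3* both wild-type groups stood clear of each other and of the clones.

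**Figure D2:**
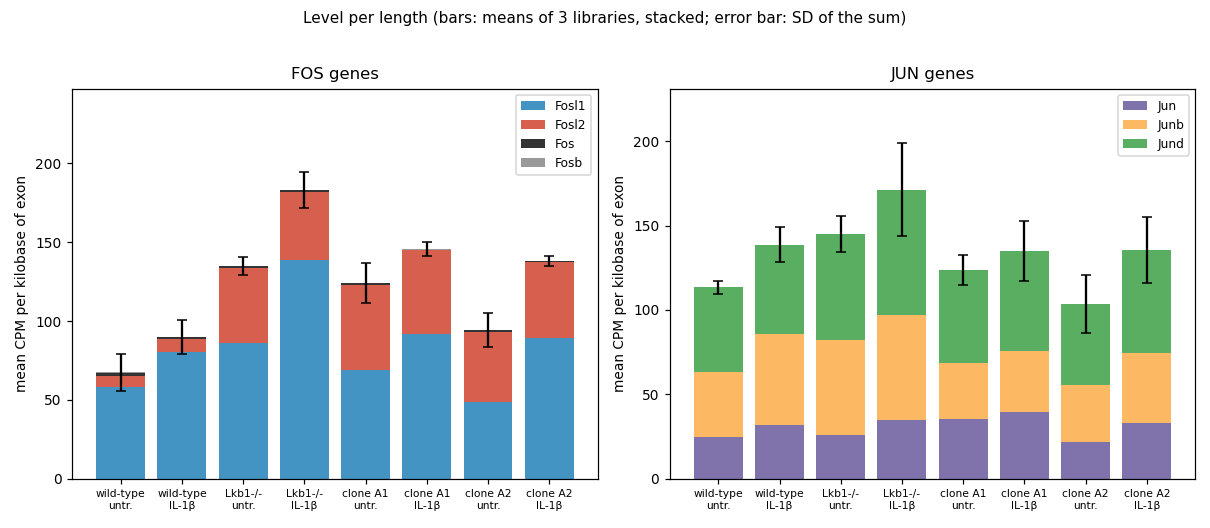
Mean level per length, in CPM per kilobase of exon, of the FOS genes (left) and JUN genes (right) in the 8 groups, stacked, with the SD of the sum over 3 libraries as error bar. *Fosl2* is a thin part of the FOS sum in wild-type cells (11.2% untreated) and a large one in *Lkb1*-/- cells (35.0%) and both clones (43.5% and 47.4%).

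*Lkb1*-/- cells had more *Fosl2* and *Fosl1* RNA than wild-type cells and less *Atf3*, untreated and with IL-1β. *Jund* was also called higher in both states and *Junb* in untreated cells, but both untreated calls were lost in most fits with 1 library left out. Differences were tested with edgeR's quasi-likelihood test across all 17522 genes and called at a Benjamini-Hochberg FDR under 0.05. In untreated cells 4 of the 8 genes were higher in *Lkb1*-/- than in wild-type MEFs, against 30.1% of all genes tested, and 1 was lower, against 25.8%. The median log2 fold change of the 8 genes was 0.21, and that of all genes tested 0.04. With IL-1β, 3 of the 8 were higher (30.2% of all genes) and 1 lower (27.1%), with a median of 0.17 (0.03 for all genes). The shares of the 8 genes called are thus near those of all genes.

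*Fosl2* was at 72.9, 73.9 and 69.6 CPM in untreated wild-type cells and reached 428, 495 and 448 CPM in the untreated *Lkb1*-/- libraries. The groups lay far apart, and the fitted log2 fold change was 2.66 ± 0.125 (SE; FDR = 1.39e-13), which is 6.34-fold. With IL-1β it was 2.40 ± 0.124, from 74.4, 81.6 and 82.1 CPM in wild-type to 378, 469.8 and 412 CPM in *Lkb1*-/- cells.

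*Atf3*, a repressor and activator that cell stress induces, moved the opposite way. It was at 11.6, 11.8 and 12.2 CPM in untreated wild-type and at 1.61, 1.21 and 1.36 CPM in untreated *Lkb1*-/- libraries, where it rested on 52 to 71 counts. All wild-type libraries were above all *Lkb1*-/- libraries, the log2 fold change was -3.09 ± 0.138 (FDR = 5.84e-14), and with IL-1β it was -3.03 ± 0.134. Both genes kept their call under every other setting and with any library left out.

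*Fosl1*, which encodes a FOS protein without a strong activating region, was at 145.5, 108 and 100.4 CPM in untreated wild-type and at 193, 169.6 and 164 CPM in untreated *Lkb1*-/- libraries. The groups did not overlap, and the log2 fold change was 0.57 ± 0.139 (FDR = 0.00134). With IL-1β, the *Lkb1*-/- libraries reached 265, 281 and 300 CPM against 190.3, 149.6 and 150.2 CPM in wild-type (log2 fold change 0.79 ± 0.139, FDR = 5.14e-05).

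The JUN genes differed less. *Junb* was at 85.4, 83.2 and 98.1 CPM in untreated wild-type and 111, 126 and 149 CPM in untreated *Lkb1*-/- libraries (log2 fold change 0.53 ± 0.211, FDR = 0.0378), and with IL-1β, where the groups overlapped, the difference of 0.21 ± 0.210 was not called. *Jund* was at 73.2, 86.7 and 90.5 CPM in untreated wild-type and 98.0, 109.5 and 108 CPM in *Lkb1*-/- libraries, and its difference was 0.33 ± 0.135 (FDR = 0.0413) in untreated and 0.49 ± 0.135 (FDR = 0.00402) in treated cells. The untreated calls of both genes were near the threshold. That of *Jund* was lost when any of the 6 libraries was left out (log2 fold change 0.25 to 0.36, FDR up to 0.183), and that of *Junb* when any but *Lkb1*-/- replicate 1 was left out (0.36 to 0.55, FDR up to 0.192). *Junb* was also not called with unstranded counts (FDR = 0.0783), in which it shares positions with *Prdx2* on the other strand. *Jun* was at 92.4, 77.2 and 67.0 CPM in untreated wild-type and 83.9, 86.0 and 80.1 CPM in *Lkb1*-/- libraries, which overlap, and was called under neither treatment. Nor were *Fos*, at 3.24, 4.88 and 4.90 CPM against 1.99, 3.81 and 4.05 CPM (log2 fold change -0.40 ± 0.372), and *Fosb*, at 0.921 to 1.90 CPM against 1.29 to 1.45 CPM.

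**Figure D3:**
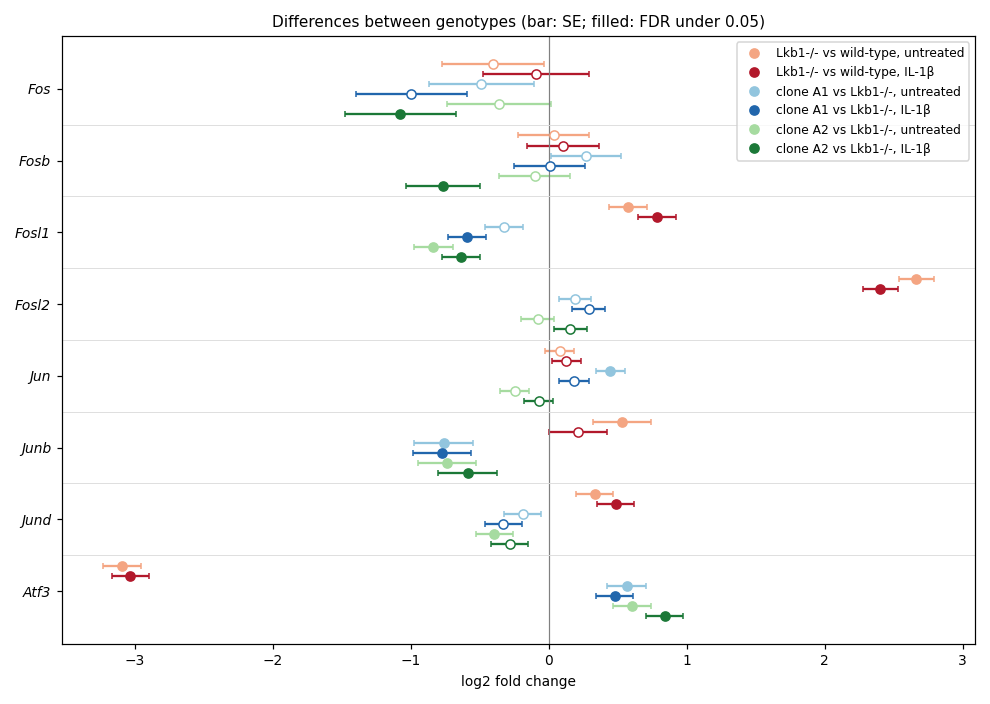
Log2 fold change of each AP-1 gene with its standard error between *Lkb1*-/- and wild-type MEFs and between each clone and *Lkb1*-/- MEFs, untreated and with IL-1β, filled where called at an FDR under 0.05. *Fosl2* and *Atf3* stand at 2.66 and -3.09 in untreated *Lkb1*-/- against wild-type cells, while all differences between clones and *Lkb1*-/- cells lie between -1.08 and 0.84.

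Both clones had less *Junb* and more *Atf3* than their *Lkb1*-/- parent, and *Fosl2* was not called different by the main test. The comparisons of A1 and A2 share the same 3 *Lkb1*-/- libraries and are therefore given side by side. In untreated cells, 2 of the 8 genes were higher and 1 lower in A1 (18.9% and 16.4% of all genes), and 1 was higher and 3 lower in A2 (17.1% and 15.1%). With IL-1β, 1 was higher and 2 lower in A1 (19.4% and 17.3% of all genes), and 1 higher and 4 lower in A2 (17.1% and 15.8%). The median log2 fold change of the 8 genes was 0.00 and -0.31 in untreated and -0.16 and -0.44 in treated A1 and A2 cells, and for all genes tested it lay between 0.01 and 0.02.

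*Junb* was at 64.9, 74.0 and 88.1 CPM in untreated A1 and 53.2, 76.8 and 101 CPM in untreated A2, against 111, 126 and 149 CPM in *Lkb1*-/- libraries. No clone library reached the lowest *Lkb1*-/- library, and the log2 fold change was -0.76 ± 0.212 in A1 (FDR = 0.00737) and -0.74 ± 0.212 in A2 (FDR = 0.0104). With IL-1β it was -0.78 ± 0.212 in A1 (FDR = 0.00637) and -0.59 ± 0.211 in A2 (FDR = 0.0364), where A2 replicate 3, at 127 CPM, lay above *Lkb1*-/- replicate 1, at 111 CPM. The A2 call with IL-1β was lost without A2 replicate 1 or 2 or without *Lkb1*-/- replicate 2 or 3 (FDR up to 0.157), and the untreated A2 call without A2 replicate 1 (FDR = 0.0510). Unstranded counts and a fit restricted to both groups also ended the treated A2 call (FDR = 0.0552 and 0.0567). Treated libraries of the same replicate number deviated together, and a fit that pairs them by number (the block) gave -0.60 for A2 (FDR = 1.23e-05).

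*Atf3* was at 1.83, 2.33 and 2.02 CPM in untreated A1 and 2.12, 2.32 and 1.92 CPM in untreated A2, above the 1.21 to 1.61 CPM of the *Lkb1*-/- libraries. The log2 fold change was 0.57 ± 0.141 in A1 (FDR = 0.00334) and 0.60 ± 0.14 in A2 (FDR = 0.00217), and with IL-1β it was 0.48 ± 0.134 (FDR = 0.00777) and 0.84 ± 0.133 (FDR = 5.06e-05). The A1 call with IL-1β was lost without A1 replicate 2 (FDR = 0.0697). Fits restricted to the groups in question ended 3 of these 4 calls, with FDR = 0.0507 and 0.0624 for untreated A1 and A2 and 0.0623 for treated A1, and no filter on low counts ended the last of these (FDR = 0.0655). Even so, the clones stayed far below wild-type, with *Atf3* lower by a log2 fold change of -2.53 ± 0.133 in untreated A1 and -2.49 ± 0.132 in untreated A2.

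*Fosl1* was at 156, 145 and 119.8 CPM in untreated A1, where it was not called (log2 fold change -0.32 ± 0.139, FDR = 0.0769, but called under 3 of the 9 other settings), and at 117, 99.99 and 78.0 CPM in untreated A2, below all *Lkb1*-/- libraries (-0.84 ± 0.14, FDR = 9.85e-05). With IL-1β it was lower in both, at 188, 184 and 188 CPM in A1 (-0.59 ± 0.139, FDR = 0.00187) and 185, 172 and 187 CPM in A2 (-0.64 ± 0.139, FDR = 0.00124), against 265 to 300 CPM in *Lkb1*-/- cells. The treated libraries of both clones were thus below every treated *Lkb1*-/- library.

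*Fosl2*, in contrast, was at 501.5, 585 and 478 CPM in untreated A1, 371, 513 and 412 CPM in untreated A2 and 428, 495 and 448 CPM in *Lkb1*-/- libraries. The groups overlapped, and the main test called no difference, with log2 fold changes of 0.19 ± 0.117 and -0.08 ± 0.117 in untreated and 0.29 ± 0.117 and 0.16 ± 0.117 in treated A1 and A2 cells. The treated A1 difference (FDR = 0.0600) was called under 5 of the 9 other settings, among them the block (0.29, FDR = 0.000665), and without A1 replicate 3 or *Lkb1*-/- replicate 2 (0.38 in both).

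*Jun* was higher in untreated A1, at 112, 126 and 102 CPM against 80.1 to 86.0 CPM (log2 fold change 0.45 ± 0.107, FDR = 0.00244), and was not called in treated A1 (0.18 ± 0.107) or untreated A2 (-0.25 ± 0.107, FDR = 0.0868), where the groups did not overlap and 4 of the 9 other settings called it lower. *Jund* was lower in untreated A2 (-0.39 ± 0.135, FDR = 0.0293), a call lost with unstranded counts (FDR = 0.0658) and without A2 replicate 1 or *Lkb1*-/- replicate 2 or 3 (FDR up to 0.134). Its differences in untreated A1 and in treated A1 and A2 were -0.19 ± 0.134, -0.33 ± 0.134 and -0.28 ± 0.134, none of them called by the main test. Other settings called them 2, 5 and 4 times of 9, and the block called both treated ones (FDR = 1.07e-05 and 0.000108). With single libraries left out, the treated A1 difference ranged from -0.45 without *Lkb1*-/- replicate 1 to -0.20 without A1 replicate 1, and the treated A2 difference from -0.40 without *Lkb1*-/- replicate 1 to -0.19 without A2 replicate 1. The treated A1 difference was called in 2 of these 6 fits and the treated A2 difference in 1.

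The low genes *Fos* and *Fosb* were lowest in A2 with IL-1β. *Fos* was at 0.464, 1.21 and 1.69 CPM there, with 21 to 69 counts, and at 0.956, 1.04 and 1.55 CPM in treated A1, against 1.78, 2.22 and 3.07 CPM in treated *Lkb1*-/- cells. All 3 *Lkb1*-/- libraries were above all clone libraries, and the log2 fold change was -1.08 ± 0.402 in A2 (FDR = 0.0449) and -0.997 ± 0.402 in A1 (FDR = 0.0582, not called, but called under 6 of the 9 other settings, with FDR = 0.000623 in the block). The A2 call was lost without A2 replicate 1 or 2 or *Lkb1*-/- replicate 2 or 3 (FDR up to 0.19, and a difference of -0.68 without A2 replicate 1), with unstranded counts (FDR = 0.0584), in the newer form of the test (0.0501) and in a fit restricted to both groups (0.0876). The A1 difference was called without A1 replicate 3 or *Lkb1*-/- replicate 1 (-1.21 and -1.16) and was at -0.76 without *Lkb1*-/- replicate 3. In untreated cells neither clone was called (-0.49 ± 0.380 and -0.36 ± 0.377), and single libraries moved these values widely, from -0.73 to -0.30 in A1 and from -0.73 without A2 replicate 3 to -0.03 without A2 replicate 1. *Fosb* was at 0.750, 0.871 and 0.735 CPM in treated A2 against 1.30, 1.31 and 1.42 CPM in treated *Lkb1*-/- cells (-0.77 ± 0.266, FDR = 0.0313), with 30 to 41 counts in A2, and this call was lost whichever of the 6 libraries was left out (FDR up to 0.0798) and without a filter (FDR = 0.0608).

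Against wild-type cells, each clone kept the high *Fosl2* and low *Atf3* of the *Lkb1*-/- cells. In untreated A1, 3 of the 8 genes were called (55.4% of all genes), with *Fosl2* at a log2 fold change of 2.85 ± 0.126, *Jun* at 0.53 ± 0.107 and *Atf3* at -2.53 ± 0.133. *Fos* missed the threshold in untreated A1 (-0.89 ± 0.379, FDR = 0.0520), with all A1 libraries below all wild-type libraries, and was called under 8 of the 9 other settings and without wild-type replicate 1 (-1.06). In untreated A2, 2 were called (60.6%), *Fosl2* at 2.58 ± 0.125 and *Atf3* at -2.49 ± 0.132. With IL-1β, 5 were called in A1 (56.9%), namely *Fosl2* (2.69 ± 0.125), *Jun* (0.31 ± 0.107), *Fos* (-1.09 ± 0.403), *Junb* (-0.57 ± 0.211) and *Atf3* (-2.55 ± 0.131), and 4 in A2 (60.8%), namely *Fosl2* (2.56 ± 0.125), *Fos* (-1.17 ± 0.403), *Fosb* (-0.66 ± 0.269) and *Atf3* (-2.19 ± 0.128). The calls of *Fosl2* and *Atf3* held with any library left out. In treated A1, *Fos* was not called without A1 replicate 1 or 2 or wild-type replicate 2 (FDR up to 0.0884), *Jun* not without A1 or wild-type replicate 3 (FDR up to 0.0622), and *Junb* not without A1 replicate 1 or 2 or wild-type replicate 3 (FDR up to 0.102). In treated A2, *Fos* was not called without A2 replicate 1 (FDR = 0.0751) and *Fosb* not without A2 replicate 1 or 3 or wild-type replicate 2 or 3 (FDR up to 0.105), nor without a filter (FDR = 0.101), in the newer form of the test (0.0564) or with upper quartile scaling (0.0609). *Fosl1*, *Junb* and *Jund*, which were higher in untreated *Lkb1*-/- than in wild-type cells, were not called in either untreated clone against wild-type by the main test, while the fit without a filter called *Fosl1* higher in A1 and lower in A2, and *Junb* lower in both.

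The clones also differed from each other. In untreated cells 2 of the 8 genes were called (32.5% of all genes), both lower in A2, *Jun* at -0.69 ± 0.108 (FDR = 3.93e-05) and *Fosl1* at -0.51 ± 0.139 (FDR = 0.00699, 0.0635 without A2 replicate 3 and 0.0626 in a fit restricted to both clones). With IL-1β, 2 were called (30.7%), *Fosb* lower in A2 (-0.77 ± 0.267, FDR = 0.0324) and *Atf3* higher (0.36 ± 0.130, FDR = 0.0393). *Fosb* was lost without A1 replicate 2 or 3 or A2 replicate 1 or 3 (FDR up to 0.184), and *Atf3* without A1 replicate 1 or 3 or A2 replicate 1 or 2 (FDR up to 0.198). That restricted fit ended both calls (FDR = 0.0753 and 0.208). *Jun* was below all treated A1 libraries in treated A2 without a call (-0.26 ± 0.107, FDR = 0.0764), and was called under 5 of the 9 other settings, among them the block (FDR = 0.0315), and without A2 replicate 3.

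After 6 hours of IL-1β, *Atf3*, *Fosl1* and *Jun* were the AP-1 genes that rose, and no AP-1 gene fell by the main test. In wild-type cells 1 of the 8 was higher (1.53% of all genes) and 0 lower (0.731%), in *Lkb1*-/- cells 3 were higher (2.65%) and 0 lower (2.09%), in A1 0 were called in either direction (1.2% of all genes were higher and 0.788% lower), and in A2 3 were higher (2.81%) and 0 lower (2.86%). In A1, 3 of the 8 had an unadjusted p under 0.05 (10.7% of all genes), and DESeq2 called 1 (3.27%). The median log2 fold change of the 8 genes was 0.25, 0.20, 0.12 and 0.33 in wild-type, *Lkb1*-/-, A1 and A2 cells, and for all genes tested it lay between -0.02 and 0.00.

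*Atf3* rose in wild-type cells from 11.6, 11.8 and 12.2 CPM to 17.7, 17.0 and 16.03 CPM (log2 fold change 0.51 ± 0.120, FDR = 0.0234), in *Lkb1*-/- cells from at most 1.61 CPM to 1.99, 2.08 and 2.11 CPM (0.57 ± 0.141, FDR = 0.0189) and in A2 from 2.12, 2.32 and 1.92 CPM to 3.58, 4.21 and 3.28 CPM (0.80 ± 0.132, FDR = 0.000443). In A1 the value was 0.48 ± 0.135 (FDR = 0.0784), with all treated libraries, at 2.57 to 3.36 CPM, above all untreated ones, at 1.83 to 2.33 CPM. The wild-type call was lost whichever library was left out (FDR up to 0.116), and the *Lkb1*-/- call without replicate 2 or 3 of either treatment (FDR up to 0.134). Fits restricted to 1 genotype called *Atf3* neither in *Lkb1*-/- cells (FDR = 0.141) nor in A2 (FDR = 0.0911), and unstranded counts did not call it in wild-type cells (FDR = 0.0510). Without a filter it was called neither in wild-type (FDR = 0.131) nor in *Lkb1*-/- cells (FDR = 0.0944). With the replicate block, A1 was called too (FDR = 0.0171). In wild-type cells *Atf3* was the 1 gene of the 8 that passed.

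*Fosl1* rose in *Lkb1*-/- cells from 193, 169.6 and 164 CPM to 265, 281 and 300 CPM (log2 fold change 0.68 ± 0.139, FDR = 0.00382) and in A2 from 117, 99.99 and 78.0 CPM to 185, 172 and 187 CPM (0.88 ± 0.14, FDR = 0.000291). In wild-type cells and A1 the treated libraries were also above the untreated ones. The differences were 0.47 ± 0.139 (FDR = 0.0936) and 0.41 ± 0.139 (FDR = 0.176), and the block called both (FDR = 0.00366 and 0.00898). *Jun*, which encodes the classical JUN partner, rose in *Lkb1*-/- cells from 83.9, 86.0 and 80.1 CPM to 94.9, 120.2 and 119 CPM (0.42 ± 0.107, FDR = 0.0235) and in A2 from 69.0, 75.3 and 66.3 CPM to 95.0, 109 and 114 CPM (0.59 ± 0.108, FDR = 0.00126). The *Lkb1*-/- call of *Jun* was lost without replicate 2 or 3 of either treatment (FDR up to 0.131). In wild-type cells and A1 *Jun* was at 0.37 ± 0.107 (FDR = 0.0882) and 0.15 ± 0.107. Without untreated wild-type replicate 1, the highest of its group for both genes, *Fosl1* and *Jun* were called in wild-type cells (0.65 and 0.50). In the other direction, *Jun* shrank to 0.24 without untreated wild-type replicate 3, and *Fosl1* to 0.35 without treated wild-type replicate 1.

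*Fos* was lower with IL-1β in the mean of every genotype, but was not called. The log2 fold change was -0.79 ± 0.378 in wild-type (FDR = 0.437), -0.48 ± 0.380 in *Lkb1*-/- (FDR = 0.648), -0.99 ± 0.403 in A1 (FDR = 0.330) and -1.19 ± 0.401 in A2 cells (FDR = 0.0937). In wild-type cells the treated libraries, at 2.15, 2.78 and 2.61 CPM, were all below the untreated ones, at 3.24, 4.88 and 4.90 CPM. With the block, wild-type cells (-0.77, FDR = 0.0133), A1 (-0.99, FDR = 0.00488) and A2 (-1.19, FDR = 0.000370) were called lower. Without treated A2 replicate 3 or untreated A2 replicate 1 the A2 difference was called too (-1.57 and -1.5), and without untreated A2 replicate 3 it shrank to -0.79. DESeq2 also called *Fos* lower in A2 (FDR = 0.0338). These are levels after 6 hours, and no earlier time was sampled.

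None of the other genes was called by the main test. In A2 *Fosb* was at 0.750, 0.871 and 0.735 CPM with IL-1β against 0.947, 1.53 and 1.43 CPM without, and the groups did not overlap (-0.72 ± 0.266, FDR = 0.135, and 0.0435 without untreated A2 replicate 1). *Junb* was at 111, 119.5 and 139.7 CPM in treated wild-type cells, above the untreated libraries, without a call (0.47 ± 0.211, FDR = 0.380), and was called in a fit restricted to wild-type cells (FDR = 0.0486). Without a filter on low counts, further genes were called: *Fosl1*, *Jun* and *Junb* higher and *Fos* lower in wild-type cells (2.59% of all genes called), *Fosl1* higher and *Fos* lower in A1 (2.47%), and *Junb* and *Jund* higher and *Fos* lower in A2 (4.47%). *Fosl2* was within 0.14 of no change on the log2 scale in all 4 genotypes, at 0.14 ± 0.119 in wild-type and -0.12 ± 0.117 in *Lkb1*-/- cells, but left-out libraries moved it from -0.11 to 0.07 in A1 and up to 0.26 in A2. The block raised the calls among all genes as well, from 5.68% to 17.9% in A2, from 1.99% to 9.61% in A1 and from 4.74% to 14.8% in *Lkb1*-/- cells. In A2 it raised the number of AP-1 genes called from 3 to 6, by *Fos*, *Junb* (0.31, FDR = 0.0254) and *Jund* (0.36, FDR = 2.62e-05), in A1 from 0 to 3, by *Fos*, *Fosl1* and *Atf3*, and in *Lkb1*-/- cells it added *Jund* (0.23, FDR = 0.00297). In wild-type cells the block raised the share of all genes called from 2.26% to 9.3%. The AP-1 genes called there rose from 1 to 5, by *Fos*, *Fosl1*, *Jun* (0.37, FDR = 0.0164) and *Junb* (0.47, FDR = 0.00189).

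**Figure D4:**
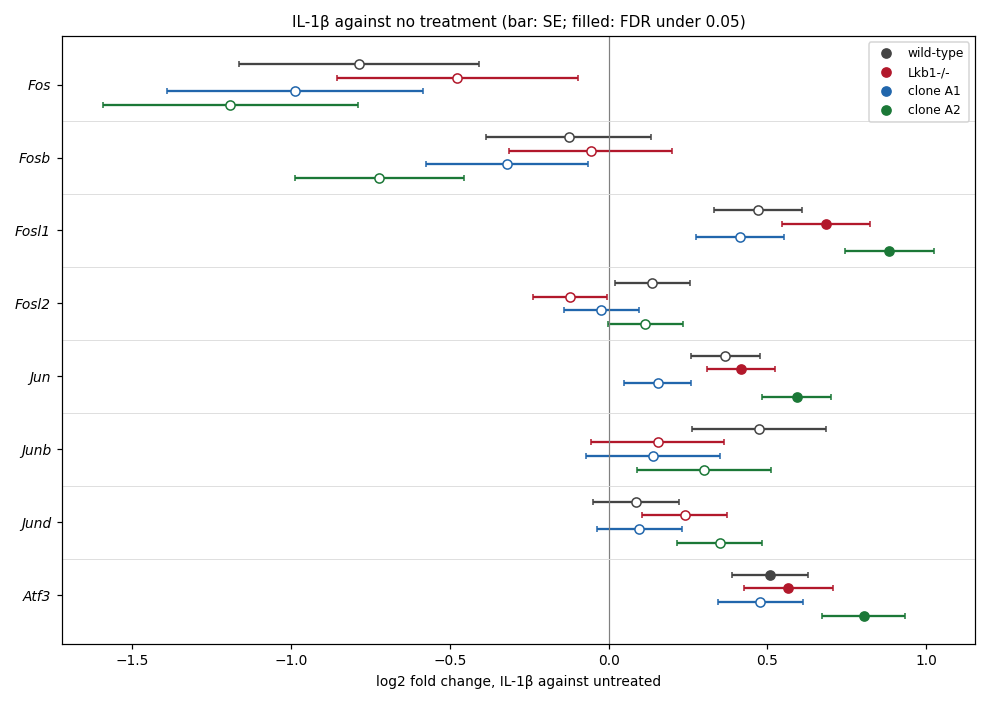
Log2 fold change of each AP-1 gene with its standard error, IL-1β for 6 hours against untreated, in the 4 genotypes, filled where called at an FDR under 0.05. *Atf3* lies between 0.48 and 0.80 and *Fosl1* between 0.41 and 0.88 in all 4 genotypes, *Fos* lies below 0 in all 4, and no gene was called in the 3 comparisons of responses that were tested (*Lkb1*-/- with wild-type, and each clone with *Lkb1*-/-).

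Whether the response to IL-1β itself depended on the genotype was tested with an interaction term. Between *Lkb1*-/- and wild-type cells 0 of the 8 genes were called (0.245% of all genes), with log2 differences of response from -0.32 ± 0.297 (*Junb*) to 0.31 ± 0.534 (*Fos*). Between A1 and *Lkb1*-/- cells 0 were called (0.0285%), with differences from -0.51 ± 0.552 (*Fos*) to 0.10 ± 0.166 (*Fosl2*), and between A2 and *Lkb1*-/- cells 0 (0%), from -0.71 ± 0.550 (*Fos*) to 0.24 ± 0.166 (*Fosl2*) and 0.24 ± 0.193 (*Atf3*). In each of the 3 comparisons 0 of the 8 genes had an unadjusted p under 0.05, against 5.62%, 2.47% and 2.21% of all genes, and DESeq2 also called 0, against 0.691%, 0.0685% and 0.0685%. These tests do not show that the responses were alike.

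*Fos*, *Junb* and *Jund* varied together between replicates. Replicate 1 had the lowest *Fos* level in 8 of 8 groups, the lowest *Jund* level in 8 of 8 and the lowest *Junb* level in 7 of 8, and replicate 3 had the highest *Junb* level in 8 of 8 groups and the highest *Fos* and *Jund* levels in 7 of 8 each. Within a group the highest *Fos* library was 1.29-fold to 3.65-fold above the lowest, the widest range of the 8 genes, and *Fosl2* 1.06-fold to 1.38-fold, with replicate 2 highest in 7 of 8 groups. Over the deviations of the 24 libraries from their group means, Pearson's r was 0.866 for *Fos* and *Junb*, 0.784 for *Fos* and *Jund* and 0.786 for *Junb* and *Jund*, and -0.552 for *Fos* and *Fosl1*. These correlations describe 24 libraries that share replicate numbers, and no p is given. The share of read pairs not assigned to a gene, for whatever reason, moved with the same numbers. It was highest in replicate 1 (29.9% to 34.4%) and lowest in replicate 3 (26.7% to 29.0%) in 8 of 8 groups. What the replicate numbers stand for (day, culture or preparation) is not given in the sources used here. The part of the numbers, or of the share of pairs not assigned to a gene, in these levels was not tested.

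**Figure D5:**
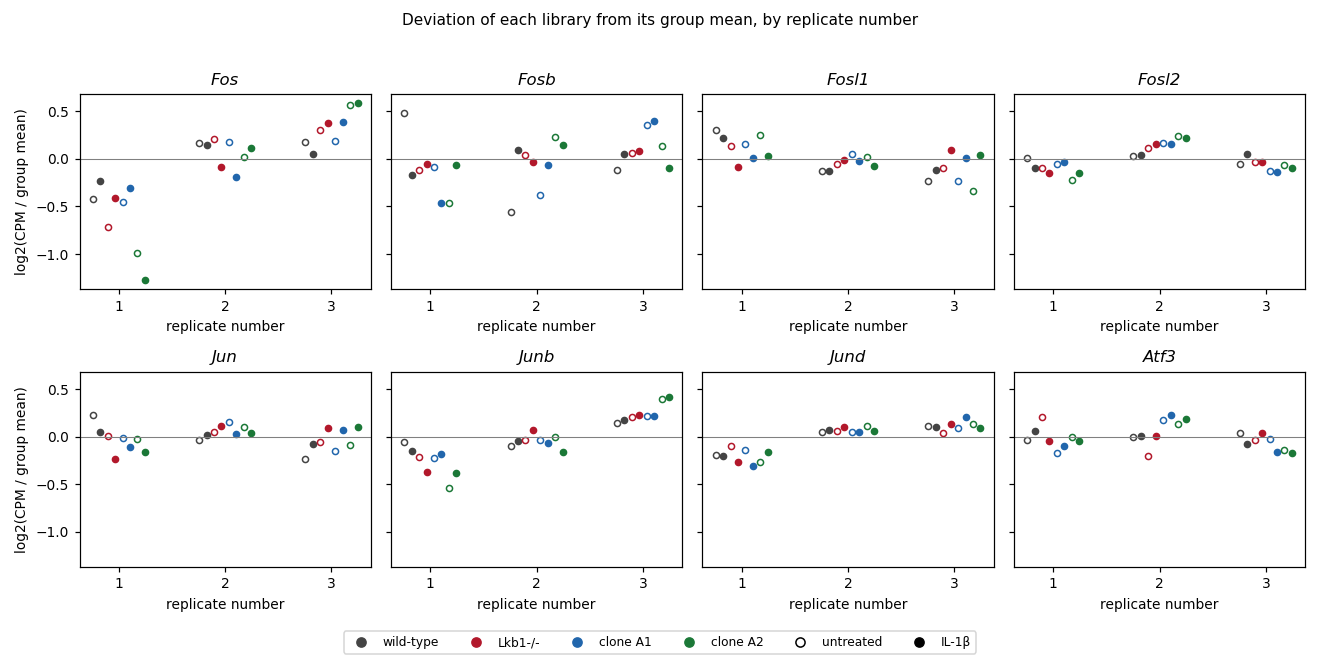
Log2 ratio of each library's CPM to its group mean, by replicate number, for the 8 AP-1 genes, with untreated groups open and IL-1β groups filled. Replicate 1 is lowest for *Fos* and *Jund* in 8 of 8 groups, and replicate 3 is highest for *Junb* in 8 of 8.

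The genes around AP-1 were taken from lists of relatives and regulators, whose counts are descriptions and stand beside those of all genes. Of all genes tested, 30.1% were higher and 25.8% lower in untreated *Lkb1*-/- than in wild-type cells, 18.9% and 16.4% in untreated A1 than in *Lkb1*-/- cells, and 17.1% and 15.1% in untreated A2, and their medians lay between 0.02 and 0.04. The kinases of the MAP kinase cascades phosphorylate FOS and JUN proteins and the factors that switch on their genes. Of 23 such kinases, all tested, 7 were higher and 11 lower in untreated *Lkb1*-/- than in wild-type cells (median log2 fold change -0.21), with *Map2k6* at 3.18 ± 0.148 and *Mapk12* at -2.36 ± 0.0894. In untreated A1 and A2 against *Lkb1*-/- cells 4 were higher and 5 lower, and 4 higher and 4 lower, and after IL-1β *Map3k8* (TPL2), a kinase that IL-1 signaling uses, was the 1 kinase that rose in each genotype, by 0.86 to 1.13 on the log2 scale. *Map2k6* was the 1 kinase that fell, in wild-type cells (-1.39 ± 0.177), and its response differed between *Lkb1*-/- and wild-type cells (1.37 ± 0.219, FDR = 0.00412). Of all genes, between 1.2% and 2.81% rose and between 0.731% and 2.86% fell.

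The DUSP phosphatases, which switch MAP kinases off, are the next list. Of 10, 2 were higher and 7 lower than in untreated wild-type cells (median -0.59). *Dusp5*, which acts on ERK in the nucleus, was at 33.2 ± 9.04 CPM in untreated wild-type and 11.2 ± 1.90 CPM in *Lkb1*-/- cells (log2 fold change -1.57 ± 0.186), and fell further to 5.06 ± 1.14 CPM in A1 (-1.14 ± 0.193) and 4.72 ± 0.734 CPM in A2 (-1.24 ± 0.193). In A1 3 of the 10 were higher and 4 lower than in *Lkb1*-/- cells, in A2 1 and 3.

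Other bZIP proteins can replace FOS in dimers with JUN or compete for the same sites. Of 11 listed, 9 were tested, with 2 higher and 5 lower in untreated *Lkb1*-/- than in wild-type cells. *Maf* rose from 5.33 ± 1.07 CPM to 184 ± 23.3 CPM (log2 fold change 5.10 ± 0.218), and *Mafk*, a small MAF without an activating region, was at -1.37 ± 0.103. In untreated A1 *Maf* was lower than in *Lkb1*-/- cells (-1.01 ± 0.179), 1 gene was higher and 2 lower, and in A2 1 and 1. Of the 6 serum response and ETS factors, which act on the *Fos* promoter, 2 were higher and 3 lower in *Lkb1*-/- cells, with *Srf* at -0.93 ± 0.0854 and *Elk3* at -0.92 ± 0.0868.

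Of 19 other immediate early genes, 10 were higher and 8 lower in untreated *Lkb1*-/- than in wild-type cells (median 0.42), with *Egr3* at 3.07 ± 0.253 and *Ccn2* at -5.17 ± 0.256. In the untreated clones 4 were higher and 7 lower in A1 and 1 higher and 8 lower in A2 than in *Lkb1*-/- cells (medians -0.34 and -0.28). *Nr4a1*, a known target of CREB, was lower in both, from 10.2 ± 1.70 CPM to 4.33 ± 0.128 in A1 (-1.24 ± 0.169) and 5.68 ± 0.643 in A2 (-0.85 ± 0.166). With IL-1β, 2 of the 19 rose and 1 fell in wild-type cells, 2 and 2 in *Lkb1*-/- cells, 2 and 1 in A1, and 3 and 4 in A2. Their medians were 0, -0.16, -0.19 and -0.19, and between 1.2% and 2.81% of all genes rose and between 0.731% and 2.86% fell. Among those that rose was *Ier3*, an NF-κB target, which was raised in all 4 genotypes, by 1.42 to 1.94 on the log2 scale.

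Genes reported as AP-1 targets were counted last. Of 17, 10 were higher and 5 lower in untreated *Lkb1*-/- than in wild-type cells (median 0.53). The matrix metalloproteinase genes led. *Mmp13* was at 0.698 ± 0.133 CPM in untreated wild-type and 43.9 ± 7.77 CPM in untreated *Lkb1*-/- cells (log2 fold change 5.96 ± 0.695). *Mmp9* was at a log2 fold change of 5.0 ± 0.328 and *Mmp3* at 4.89 ± 0.324. In untreated A1 7 were higher and 2 lower than in *Lkb1*-/- cells, and in untreated A2 3 and 8. The inflammatory gene *Il6* was lower in both (-2.88 ± 0.379 and -2.85 ± 0.369). After IL-1β 9 of the 17 rose and 0 fell in wild-type cells, 8 rose and 1 fell in *Lkb1*-/- cells, 7 and 2 in A1, and 8 and 2 in A2, where between 1.2% and 2.81% of all genes rose and between 0.731% and 2.86% fell, with *Il6* by 4.94, 5.96, 4.52 and 5.93 on the log2 scale. The responses of the 17 were compared as well. Between A1 and *Lkb1*-/- cells 0 were higher and 1 lower (median -0.46), against 0.0285% of all genes called. Between *Lkb1*-/- and wild-type cells 0 were called (median -0.04), against 0.245%, and between A2 and *Lkb1*-/- cells 0 (median -0.21), against 0%. Which of these genes AP-1 acts on in these cells was not tested.

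For each AP-1 gene, the genes with the most similar level over the 24 libraries were sought among 9352 genes with a mean log2 CPM above 3. For *Fosl2* they were *Nrg1* (Pearson's r = 0.996), *Col6a1* and *Dnm1* (both 0.992), and for *Atf3* *Uhrf1bp1l* (0.98), *Nvl* (0.979) and *Exo1* (0.974). The correlation of *Fosl2* with *Atf3* was -0.916, with the wild-type libraries apart from the others in both genes, and 0.445 over deviations from the group means. For *Jun* they included *Tnfaip3* (0.901) and *Nfkbia* (0.877), both inhibitors of NF-κB signaling, and for *Fosl1* *Timp1* (0.923), *Ereg* (0.918) and *Nfkb2* (0.901). For *Fos* they were *Phka1* (0.91), *Dpysl2* (0.898) and *Klhl9* (0.893), for *Junb* *Mgat5* (0.915), *Zdhhc18* (0.906) and *Morf4l2* (0.893), for *Jund* *Pgm1* (0.911), *Pfkl* (0.881) and *Ak4* (0.873), and for *Fosb*, the gene with the fewest counts, *Twist1* (0.769), *Zfp608* (0.745) and *Tesk1* (0.734). The libraries share genotype, treatment and replicate number, and the correlations are a description without a p.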

How the data were processed

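RNA of MEFs was sequenced in 24 libraries. The labels give a SMARTER mRNA-Seq kit and the methods a KAPA HyperPrep kit with removal of ribosomal RNA, and which was used is not settled here. Per the labels and methods, the authors trimmed reads (Trim Galore 0.6.0), mapped them with STAR 2.7.8a to mm10 (GRCm38), and deposited raw gene counts as STAR writes them, not normalized. Of the columns, the one for the second strand was taken: 95.5% to 96.0% of all pairs that either strand column assigned were in it. Lines that name no gene, 26.7% to 34.4% of the pairs, were left out. Symbols and exon lengths came from GENCODE M21 on the same build.

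Genes were filtered with filterByExpr (minimum count 10, minimum total 15) and scaled with TMM, neither of which the paper's methods name. The fit used edgeR 4.0.16 (legacy quasi-likelihood test, 1 coefficient per group, all 24 libraries, R 4.3.3), after the authors' model and test. In it 19 contrasts were tested and called at an FDR under 0.05. The common biological coefficient of variation was 0.129. CPM values use TMM-scaled library sizes. The fit was tested on simulated data. The members and the lists (MAP kinases, DUSP phosphatases, bZIP partners, serum response and ETS factors, immediate early genes, reported AP-1 targets, markers) were chosen with earlier results of these data known. Beside the 8 genes, the text names the targeted genes, genes with the largest log2 fold changes among those called in a list with a mean log2 CPM above 1, and the 3 genes with the highest correlation with each member. Markers with no library above 3 counts were named for the check of the label. Some genes that these rules select are not reported here.

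Alternatives were unstranded counts, DESeq2 size factors, upper quartile scaling, no filter (a count above 0), at least 10 counts in every library, the newer quasi-likelihood form, DESeq2 1.42.0, only the groups compared, the replicate number as a block, and leaving out each library in turn. Same-numbered libraries were taken as pairs where all correlations of their deviations from the group means were above 0.1. This held for 9 of 28 pairs of groups (84 correlations from 0.014 to 0.521), among them all comparisons between *Lkb1*-/-, A1 and A2 cells with IL-1β and IL-1β against untreated within each of these.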

Additional observations from a re-analysis of the deposited data

How the results depend on the processing

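Of the 49 calls of AP-1 genes in the 19 comparisons, 30 held with any library left out, 34 under all other alternatives and 27 under both. No call changed direction. Over all 8 genes and 19 comparisons, 60 of 2424 alternative values changed sign, all without a call. They lie in 27 differences of at most 0.187 in size by the main test. Among those described above are *Fosl2* in untreated A2 against *Lkb1*-/- cells, at -0.2 to 0.028 over the libraries left out, *Fosl2* with IL-1β in A1, at -0.107 to 0.068 and at 0.004 with at least 10 counts in every library and 0.001 without a filter, and *Jun* and *Fosb* in untreated *Lkb1*-/- against wild-type cells, at -0.084 to 0.208 and -0.182 to 0.361. Of 44 uncalled differences described, 29 shrank by over 1.5 times or changed sign when 1 library was left out.

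Counts of AP-1 genes are given here with the share of all genes called under the same setting in parentheses. By the main test the shares were 35.3% and 36.7% for untreated and treated A1 against *Lkb1*-/-, 32.8% for treated A2 against *Lkb1*-/-, 55.4% and 60.6% for untreated A1 and A2 against wild-type, 32.5% and 30.7% for untreated and treated A2 against A1, and 2.26%, 1.99% and 5.68% for IL-1β in wild-type, A1 and A2.

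With the replicate number as a block, the count was 6 in untreated A1 against *Lkb1*-/- cells (48.1%) and 6 with IL-1β (49.1%), 7 and 5 in untreated A1 and A2 against wild-type (64.2% and 68.6%), 4 in untreated A2 against A1 (46.3%), and 5, 3 and 6 for IL-1β in wild-type, A1 and A2 (9.3%, 9.61% and 17.9%). The numbers paired the treated libraries of *Lkb1*-/-, A1 and A2 cells and the treated with the untreated ones within each of these. There the block changed no call beside those given above. Elsewhere the correlations were not all above 0.1, but replicate 1 was lowest for *Fos* and *Jund* in 8 of 8 groups, wild-type ones included. In untreated *Lkb1*-/- against wild-type cells the block called 6 genes (64.3%), against 5 (55.9%) by the main test. The added gene was *Fos*, called lower (-0.44, FDR = 0.0498). Whether pairing by number is right for these groups was not tested.

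Without a filter the counts were 5 for treated A1 against *Lkb1*-/- cells (16.9%), 6 and 5 for untreated A1 and A2 against wild-type (26.6% and 29.4%), 1 for treated A2 against A1 (14.3%), and 4, 2 and 6 for IL-1β in wild-type, A1 and A2 (2.59%, 2.47% and 4.47%), the 4 without *Atf3*. For treated A1 against *Lkb1*-/- and for IL-1β in A1 they were 6 (45%) and 1 (3.03%) with at least 10 counts in every library and 5 (38.3%) and 1 (3.27%) with DESeq2, and upper quartile scaling gave 6 (38.2%) for the first. For treated A2 against *Lkb1*-/-, treated A2 against A1 and IL-1β in wild-type cells they were 3 (28.3%), 1 (25.8%) and 0 (1.81%) with unstranded counts and 3 (27.3%), 1 (26.7%) and 2 (2.52%) with only the groups compared, which gave 1 (27.9%) for untreated A2 against A1. The cause of these changes was not tested.

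With each library left out, the counts ranged from 3 to 4 for *Lkb1*-/- against wild-type untreated (50.7% to 53% of all genes), from 2 to 6 for A1 against *Lkb1*-/- with IL-1β (29.9% to 32.9%), from 2 to 4 and 2 to 5 for A2 against *Lkb1*-/- untreated (25.7% to 33.8%) and treated (27.1% to 32.4%), from 3 to 5 for A1 against wild-type untreated (49.8% to 52%) and treated (51.5% to 53.7%), from 2 to 4 for A2 against wild-type untreated (55.5% to 59.1%) and treated (55.3% to 58.1%), and from 1 to 3 and 0 to 2 for A2 against A1 untreated (26.4% to 34.2%) and treated (23.7% to 30.8%). For IL-1β they ranged from 0 to 2 in wild-type (1.13% to 2.3%), 1 to 3 in *Lkb1*-/- (3.03% to 4.25%) and 3 to 5 in A2 (3.79% to 10.6%). With 3 libraries a group, differences of *Fos* and *Fosb*, on 21 to 212 counts a library, are the least precise.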
